A study of Homo sapiens with 5 samples.

Results

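A set of 10 genes that store, import, export or sense cellular iron or degrade heme was followed across human liver cancer lines in which SALL4 had been overexpressed or depleted. SALL4 is a transcription factor with zinc fingers that is active in the embryo and comes back in some tumours. They were taken by symbol out of 24544 symbols: FTL, FTH1, HMOX1, TFRC, SLC40A1, SLC11A2, NCOA4, IREB2, ACO1 and STEAP3. The set was drawn up around FTL and HMOX1, which were picked because both were higher in the SALL4 knockdown library. Values from the knockdown comparison are therefore a description of the choice and carry no test.

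RNA-seq was measured in 5 libraries of 2 established human hepatocellular carcinoma lines, 1 library per condition. In SNU-387 the conditions were empty vector, a vector for the isoform SALL4A and a vector for the isoform SALL4B. SNU-398 cells were untreated or carried a knockdown directed at both SALL4 isoforms. The labels list lentiviral transduction and puromycin for every sample, but call the SNU-398 control untreated, so transduction and loss of SALL4 cannot be told apart in that pair. All cells grew in RPMI medium with 10% serum, and ribosomal RNA was removed from total RNA before library preparation. The series title names a screen for oxidative phosphorylation weaknesses linked to SALL4, and expression was compared to find what SALL4 changes.

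Ferritin is a hollow shell of light chains (FTL) and heavy chains (FTH1) that holds iron inside the cell, and the heavy chain oxidises the iron as it enters. When iron is scarce, the iron regulatory proteins ACO1 (IRP1) and IREB2 (IRP2) bind hairpins called iron-responsive elements in mRNA, which blocks translation of ferritin and of the exporter ferroportin (SLC40A1) and stabilises the mRNA of the transferrin receptor (TFRC). Heme oxygenase 1 (HMOX1) opens the heme ring and releases its iron, and transcription of HMOX1 and of both ferritin genes is raised by NRF2 and repressed by BACH1. In the liver, hepatocytes are the main iron store and macrophages recycle iron from heme.

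The iron-responsive elements are shown because they are the sequences through which iron regulatory proteins act on genes of the set, apart from any change in transcription. A hairpin was searched for as C, 5 bases, the loop CAGTGN and 5 bases that pair with the first 5, with G:U pairs allowed, on the sense strand of the untranslated regions (UTRs) of GENCODE 29 on GRCh38. The sites lie in the 5' UTR of FTL at chr19:48965335-48965363 (plus strand), of FTH1 at chr11:61967574-61967602 (minus strand) and of SLC40A1 at chr2:189580661-189580689 (minus strand). TFRC has 4 matches to this pattern in its 3' UTR on the minus strand, and any element that departs from the pattern is not counted. The matches run from chr3:196050979-196051007 (site 1) through chr3:196050575-196050603 (site 2) and chr3:196050510-196050538 (site 3) to chr3:196050463-196050491 (site 4). Capitals mark the 6-base loop of each 29-base site, written 5′ to 3′ as DNA.
FTL: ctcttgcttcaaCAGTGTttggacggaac
FTH1: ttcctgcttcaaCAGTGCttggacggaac
SLC40A1: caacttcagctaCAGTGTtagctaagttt
TFRC site 1: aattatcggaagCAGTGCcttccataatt
TFRC site 2: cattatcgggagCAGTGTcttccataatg
TFRC site 3: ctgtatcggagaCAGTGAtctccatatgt
TFRC site 4: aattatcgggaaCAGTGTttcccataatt

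The UTRs of the other 6 genes held no match to this strict pattern, and an element known in one mRNA form of SLC11A2 was not found by it. Over all protein-coding genes, 22 of 19652 (0.112%) had a match in the 5' UTR and 119 of 19652 (0.606%) in the 3' UTR. A match is a description of the sequence and not a measured site. The core of the antioxidant response element, the DNA motif of NRF2 and BACH1 (TGACNNNGC, on both strands), was counted in RefSeq GRCh38.p14 promoter windows of 300 bases. It occurred in 1 of the 13 windows of the 8 genes that had an entry, which was 1 of the 2 windows of NCOA4. Over all windows of that length, 4687 of 35116 (13.3%) held it. FTH1 and HMOX1 had no entry. The windows ran from 250 bases upstream to 50 bases downstream of the start, so elements farther away were not searched for.

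The label of both SNU-398 samples in the cell line field reads SNU-387, and the titles were followed. Correlations of log2(FPKM + 1) were 0.932 to 0.977 within a titled line and 0.829 to 0.857 between lines. FPKM scales fragment numbers for transcript length and library depth, so levels of different genes can be compared. SALL4 was at 39.4 FPKM in untreated and 7.45 in knockdown SNU-398 cells, and at 0.117, 23.1 and 10.4 FPKM with empty vector, SALL4A and SALL4B. Depth, read from the step size of low values, was estimated at 7.67 M (mega) fragments in the knockdown library, the shallowest, and up to 25.2 M in the SALL4A library. Small nucleolar RNAs took 1.04% of summed FPKM in untreated and 37.1% in knockdown cells, against 7.14% to 13.2% in SNU-387. The labels give liver as the tissue, but hepatocyte markers were low: the 10 listed summed to 3.27 to 40.9 FPKM, APOA2 was at 0 in all 5 libraries and ALB did not exceed 1.28 FPKM. The upper end was the SALL4B library, where SERPINA1 was at 25.3 FPKM and APOA1 at 14.9, against 5.78 and 0.308 FPKM with empty vector. In bulk RNA, fewer cells of a type and less RNA per cell cannot be told apart.

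The ratios of the 10 genes are summarised first, and no count among them is read as a result about the set. After knockdown, FTL and HMOX1 were higher by 2-fold or more and SLC40A1 and STEAP3 lower by 2-fold or more, while the heavy chain FTH1 and TFRC had ratios of -0.14 and -0.10. With SALL4A only SLC40A1 reached 2-fold, as a lower value, and with SALL4B none did. Over all genes tested, 9.73% were higher and 8.13% lower after knockdown. The shares were 2.27% and 3.24% with SALL4A, and 3.13% and 4.86% with SALL4B. All ratios are log2 of (FPKM + 1) over (FPKM + 1), which understates differences at low values, and with 1 library per condition none has a replicate check or a p-value. Higher and lower are used below as a call only for ratios of at least 2-fold.

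**Figure D1:**
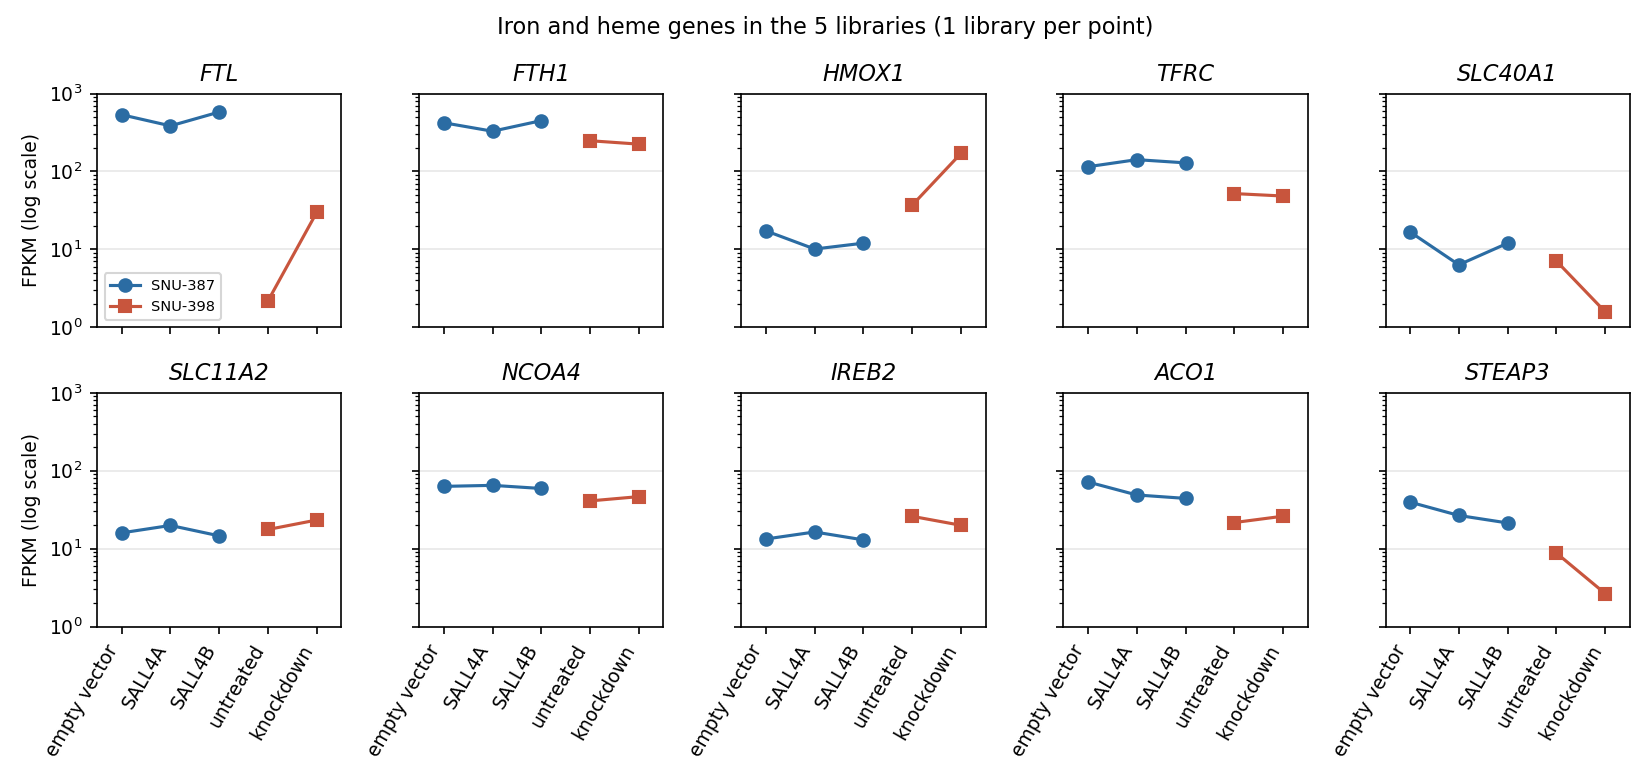
FPKM (log axis) of each of the 10 genes in the 5 libraries, 1 point per library, with lines joining libraries of the same cell line. FTL lies at 384 to 579 FPKM in SNU-387 and at 2.20 and 30.3 FPKM in SNU-398, while FTH1 stays between 224 and 449 FPKM in all 5.

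The 2 ferritin chains kept a similar proportion in SNU-387 but not in SNU-398. FTL (chromosome 19, 48965301 to 48966878, plus strand, GRCh38) was at 534 FPKM with empty vector, 384 with SALL4A and 579 with SALL4B, but at 2.20 FPKM in untreated and 30.3 in knockdown SNU-398 cells. The 3 SNU-387 values all lie far above both SNU-398 values. FTL ranked 76th to 116th of all symbols by level in SNU-387, 11369th in untreated SNU-398 and 2971st after knockdown. FTH1 (chromosome 11, 61959718 to 61967660, minus strand) was at 422, 328 and 449 FPKM in SNU-387, in the order empty vector, SALL4A, SALL4B, and at 248 FPKM in untreated and 224 in knockdown SNU-398 cells. It ranked between 91st and 209th in every library.

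The makeup of the ferritin transcripts therefore differed between the lines. The FTL level divided by the FTH1 level was 1.27 with empty vector, 1.17 with SALL4A and 1.29 with SALL4B. It was 0.00890 in untreated and 0.135 in knockdown SNU-398 cells, that is 112 and 7.40 times as much FTH1 as FTL per unit length. The summed level of both chains was 249.9 FPKM in untreated and 254 in knockdown cells, from a difference of 28.1 FPKM in FTL and of -23.7 FPKM in FTH1. In SNU-387 the sum was 956 FPKM with empty vector, 712 with SALL4A and 1028 with SALL4B. Both chains had their lowest SNU-387 value with SALL4A.

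The knockdown to untreated ratio of FTL was 3.29 on the log2 scale, or 13.7-fold in plain FPKM, and stood 145th from the top of the 13716 genes that reached 1 FPKM in one or both libraries. The untreated value rests on an estimated 37 fragments, a counting error of 16.4%, and the knockdown value on 171 fragments, a counting error of 7.64%. The ratio of FTH1 was -0.14. Ferritin genes have many processed pseudogenes, and reads of near-identical copies may be split between them in ways the counting steps named do not settle. GENCODE 29 lists 16 pseudogenes of FTL and 25 of FTH1, of which 1 and 2 had rows. FTH1P3 had the highest of these, at 4.76 FPKM in untreated and 12.9 in knockdown cells and 0.392 to 1.24 FPKM in SNU-387, and FTLP10 and FTH1P18 were listed at 0 in all 5 libraries.

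Other genes abundant in SNU-387 and nearly missing from untreated SNU-398 cells also had a low level in the knockdown library. By a rule set after the data were seen, 10 genes were at 100 FPKM or more in all 3 SNU-387 libraries and under 1 FPKM in untreated SNU-398. They include the keratins KRT8 and KRT18, the calcium-binding protein S100A6, the lactate dehydrogenase chain LDHB and the matrix protein SPARC. All 10 had a larger value after knockdown than in untreated cells, at 0.882 to 14.4 FPKM. The low limit in untreated cells favours a larger value after knockdown, so nothing is read from that direction. With the limit in untreated cells set at 5 FPKM instead, 16 genes were found, FTL among them. Of these, 11 were higher after knockdown, beside 9.73% of all genes tested, and the limit favours that direction too. CD24 (2.46 and 2.44 FPKM) and SERPINE2 (2.80 and 2.22 FPKM) were not larger after knockdown. Among the first 10 genes the gain was 0.607% (TGFBI) to 2.31% (S100A6) of the empty vector level, with a median of 0.978%. For FTL the gain was 5.25% of the empty vector level. FTL, at 2.20 FPKM in untreated cells, did not meet the limit of 1 FPKM, so it is not a gene of the same kind as those 10. Whether RNA or reads of SNU-387 are present in the knockdown library was not tested. When the median or the highest of these shares of the empty vector profile was subtracted from the knockdown library, the FTL ratio was 3.02 or 2.56. The HMOX1 ratio was 2.18 after either subtraction. The subtracted shares come from genes picked on these same libraries, and joint normalisation of the 2 lines is not given. The subtraction is therefore a description and does not settle the source of either gain.

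**Figure D2:**
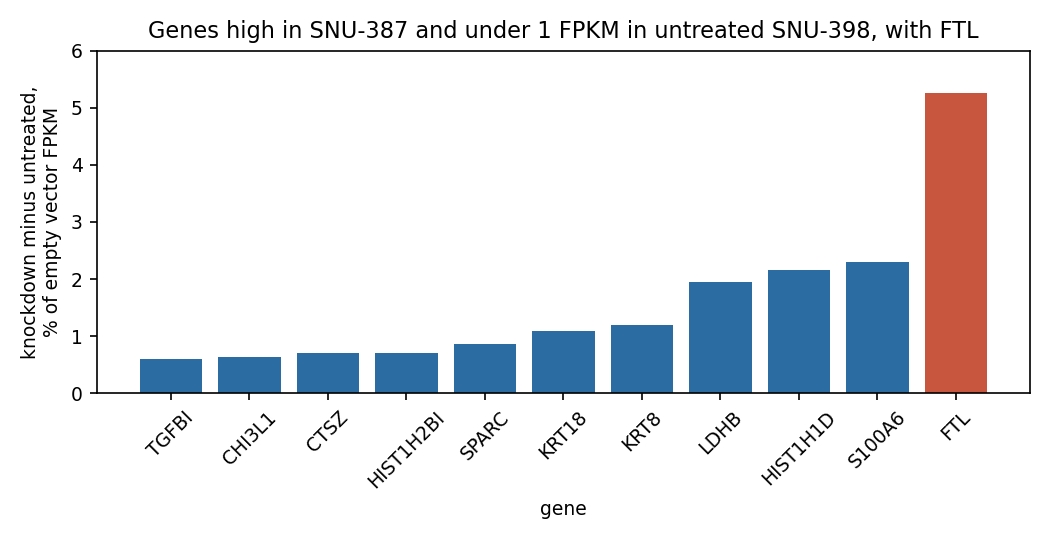
Gain in FPKM from untreated to knockdown SNU-398 cells as a percent of the empty vector SNU-387 level, for the 10 genes near absent from untreated cells (blue) and for FTL (red), 1 bar per gene. The blue bars span 0.607% to 2.31% and FTL stands at 5.25%. FTL, at 2.20 FPKM in untreated cells, does not meet the rule that picked the other 10.

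HMOX1 gained more FPKM after knockdown than any other gene of the set. HMOX1 (chromosome 22, 35380361 to 35394214, plus strand) was at 37.1 FPKM in untreated and 171 in knockdown cells, and at 17.3, 10.1 and 12.02 FPKM with empty vector, SALL4A and SALL4B. Both SNU-398 values lie above all 3 SNU-387 values. Its knockdown ratio was 2.18, or 4.63-fold in plain FPKM, the 215th highest of the 13716 genes, and the estimated fragments behind it were 1430 and 2213. Among the 10 genes HMOX1 was the 4th most abundant in untreated cells and the 2nd after knockdown, behind FTH1. In SNU-387 it was the 7th with empty vector and the 9th with either isoform. Its ratio to empty vector was -0.72 with SALL4A and -0.49 with SALL4B, and neither reached 2-fold.

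Knockdown thus gave 2 of 10 genes higher and 2 of 10 lower, against 9.73% of all genes tested on the higher side and 8.13% on the lower side. Because the set was chosen on this comparison, nothing is read from these counts. The median ratio of the 10 genes was 0.04 and that of all genes -0.01. The knockdown library holds far more small nucleolar RNA, which lowers all other values once libraries are scaled to a common total. Under that scaling the median of all genes shifted to -0.62 and the share of higher genes among those called went from 54.5% to 11.7%. FTL was then at 2.75, HMOX1 at 1.52, FTH1 at -0.81 and TFRC at -0.76.

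**Figure D3:**
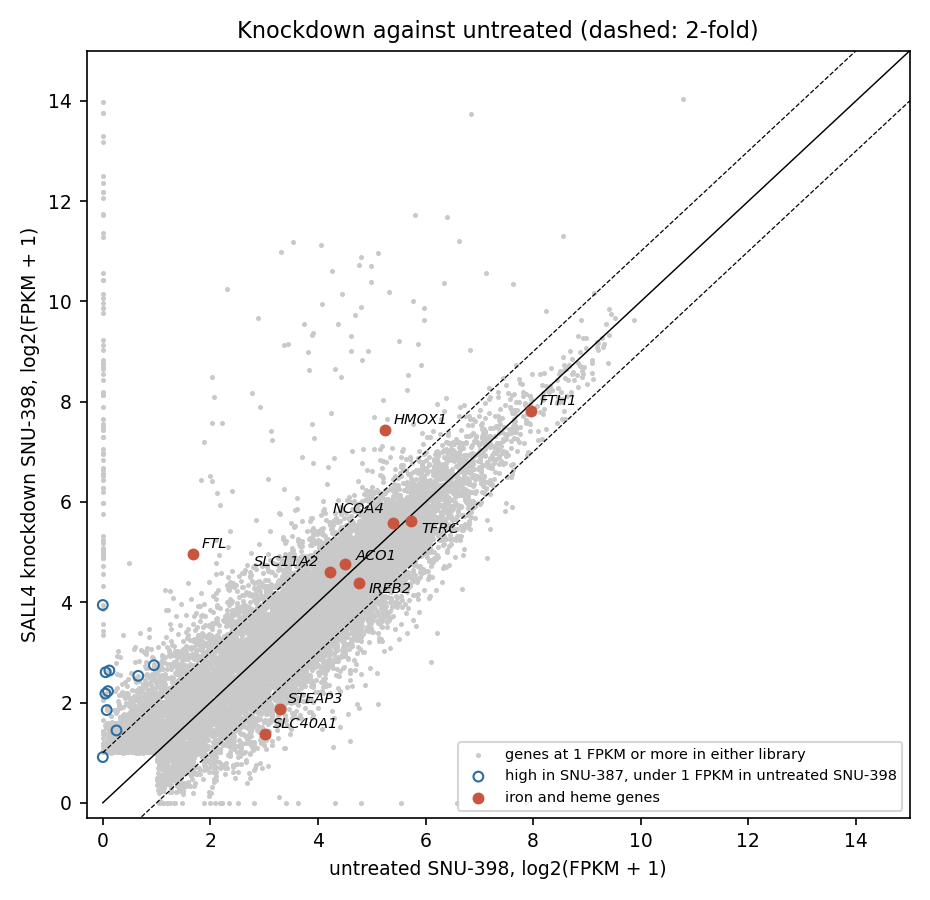
log2(FPKM + 1) in untreated (x axis) and knockdown (y axis) SNU-398 cells for genes that reached 1 FPKM in one or both, with the 10 iron and heme genes in red and the 10 genes near absent from untreated cells as open circles. FTL and HMOX1 lie above the 2-fold band and SLC40A1 and STEAP3 below it.

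Ferroportin (SLC40A1), the only known iron exporter of animal cells, had a lower value in 2 comparisons that change SALL4 in opposite directions. SLC40A1 (chromosome 2, 189560579 to 189583758, minus strand) was at 16.8 FPKM with empty vector, 6.34 with SALL4A and 12.01 with SALL4B. It was at 7.07 FPKM in untreated and 1.57 in knockdown SNU-398 cells, the lowest of the 5 values. With SALL4A the ratio to empty vector was -1.28, or 2.64-fold lower in plain FPKM, the 216th lowest of 12441 genes, and with SALL4B it was -0.45. After knockdown it was -1.65, or 4.49-fold lower in plain FPKM, the 196th lowest of 13716. The knockdown value rests on an estimated 40 fragments, a counting error of 15.8%. With a pseudocount of 5 FPKM in place of 1, the SALL4A and knockdown ratios were -0.94 and -0.88, both short of 2-fold.

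Macrophages are a main source of SLC40A1 and HMOX1 in liver, and 12 of their markers were examined. VSIG4 and C1QC were at 0 in all 5 libraries and CD163 did not exceed 0.116 FPKM. With empty vector 4 of the 12 reached 1 FPKM, and in untreated SNU-398 cells 1 did. CD14 was at 3.39, 2.83 and 1.41 FPKM with empty vector, SALL4A and SALL4B, and CSF1R at 2.66, 2.49 and 0.615. The 12 markers summed to 42.4 FPKM with empty vector, 23.3 with SALL4A, 45.4 with SALL4B, 5.89 in untreated and 10.4 in knockdown cells, and most of each sum was CD68, a lysosomal protein that other cells also make. The CD68 level was 34.0 FPKM with empty vector, 15.5 with SALL4A and 41.7 with SALL4B. It was 4.90 FPKM in untreated and 8.65 in knockdown cells. The part of CD68 in the HMOX1 and SLC40A1 differences was not tested. Of 11 erythroid markers none reached 1 FPKM in any library. Of 11 fibroblast markers, 10 were at 1 FPKM or more in the SALL4A comparison. The sum of the 11 went from 953 FPKM with empty vector to 497 with SALL4A. With SALL4A 6 of the 10 were lower and 2 higher, beside 3.24% and 2.27% of all genes. The higher ones were the contractile and filament genes ACTA2, at 56.9 FPKM with empty vector and 168 with SALL4A, and DES, at 2.33 and 6.66 FPKM. With SALL4B, where SLC40A1 did not reach 2-fold, 5 of 10 fibroblast markers were lower and 1 higher, beside 4.86% and 3.13% of all genes. The sum with SALL4B was 648 FPKM, of which LUM made 488. It was 250 and 262 FPKM in untreated and knockdown SNU-398 cells, of which COL3A1 made 127 and 131. After knockdown 2 of 8 tested markers were lower and 1 higher, beside 8.13% and 9.73% of all genes. DCN was at 17.5 and 4.09 FPKM, THY1 at 7.61 and 2.65, and FAP, the higher one, at 25.6 and 61.2. The part of fibroblast-type expression in the SLC40A1 difference was not tested.

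Among the iron uptake genes of the set, STEAP3 was the one that reached 2-fold in any comparison. STEAP3, an endosomal reductase that turns transferrin-delivered ferric iron into ferrous iron (chromosome 2, 119223831 to 119265652, plus strand), was at 39.6, 26.7 and 21.4 FPKM in SNU-387 with empty vector, SALL4A and SALL4B. It was at 8.77 FPKM in untreated and 2.64 in knockdown SNU-398 cells, both below every SNU-387 value. Its knockdown ratio was -1.42, or 3.32-fold lower in plain FPKM, the 343rd lowest of 13716, from an estimated 84 fragments in the knockdown library. With a pseudocount of 5 FPKM it was -0.85. Its ratios to empty vector, -0.55 with SALL4A and -0.86 with SALL4B, did not reach 2-fold, and the second was the nearest to that limit among values that missed it in the comparisons with empty vector.

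The transferrin receptor TFRC, which carries iron-loaded transferrin into endosomes, stayed within 2-fold in every comparison. TFRC (chromosome 3, 196027183 to 196082189, minus strand) was at 115 FPKM with empty vector, 142 with SALL4A and 129 with SALL4B, and at 52.0 and 48.4 FPKM in untreated and knockdown SNU-398 cells. The highest SNU-387 value was 1.23 times the lowest, and in SNU-398 the factor was 1.07. Iron regulatory proteins act on ferritin at translation, so the FTH1 mRNA level does not report their action on it. TFRC was set against FTH1 only to describe the mRNA levels. The TFRC level divided by the FTH1 level was 0.273 with empty vector, 0.432 with SALL4A, 0.287 with SALL4B, 0.210 in untreated and 0.216 in knockdown cells. The SALL4A library had the highest of these quotients. TFRC (5111 bases) and FTH1 (1229 bases) differ in transcript length. Over all genes the median ratio of SALL4A to empty vector was 0.09 from 4000 bases and -0.14 from 1000 to 2000 bases. The part of transcript length in the quotient was not tested.

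SLC11A2 (DMT1), which moves ferrous iron out of the endosome, was at 16.0, 19.9 and 14.6 FPKM in SNU-387 and at 17.6 and 23.4 FPKM in untreated and knockdown cells. The ranges of the lines overlap. SLC11A2 lies on chromosome 12, 50979401 to 51028566, minus strand, and its knockdown ratio was 0.39. NCOA4, the receptor that carries ferritin to autophagosomes for breakdown, had the narrowest spread of the set in SNU-387, at 63.0, 64.9 and 59.2 FPKM. NCOA4 (chromosome 10, 46005088 to 46030714, minus strand) was at 41.0 FPKM in untreated and 46.6 in knockdown cells, a ratio of 0.18.

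Neither iron regulatory protein reached 2-fold in any comparison of the deposited values. ACO1, a cytosolic aconitase that becomes an RNA-binding protein when it loses its iron-sulfur cluster, was at 71.8, 48.9 and 44.2 FPKM in SNU-387 and at 21.7 and 26.1 FPKM in untreated and knockdown cells. IREB2, which is degraded when iron is plentiful, was at 13.3, 16.4 and 13.0 FPKM in SNU-387 and at 26.0 and 19.9 FPKM in untreated and knockdown cells. ACO1 was above IREB2 in all 3 SNU-387 libraries and after knockdown, and below it in untreated SNU-398. ACO1 lies on chromosome 9, 32384603 to 32454769, plus strand, and IREB2 on chromosome 15, 78437431 to 78501456, plus strand. ACO1 had ratios to empty vector of -0.55 with SALL4A and -0.69 with SALL4B, and IREB2 of 0.28 and -0.04. After knockdown the ratios were 0.26 for ACO1 and -0.37 for IREB2. Scaled to a common total, IREB2 was at -1.01, just past 2-fold, and the ratios of ACO1, NCOA4 and SLC11A2 turned negative, at -0.38, -0.48 and -0.25.

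**Figure D4:**
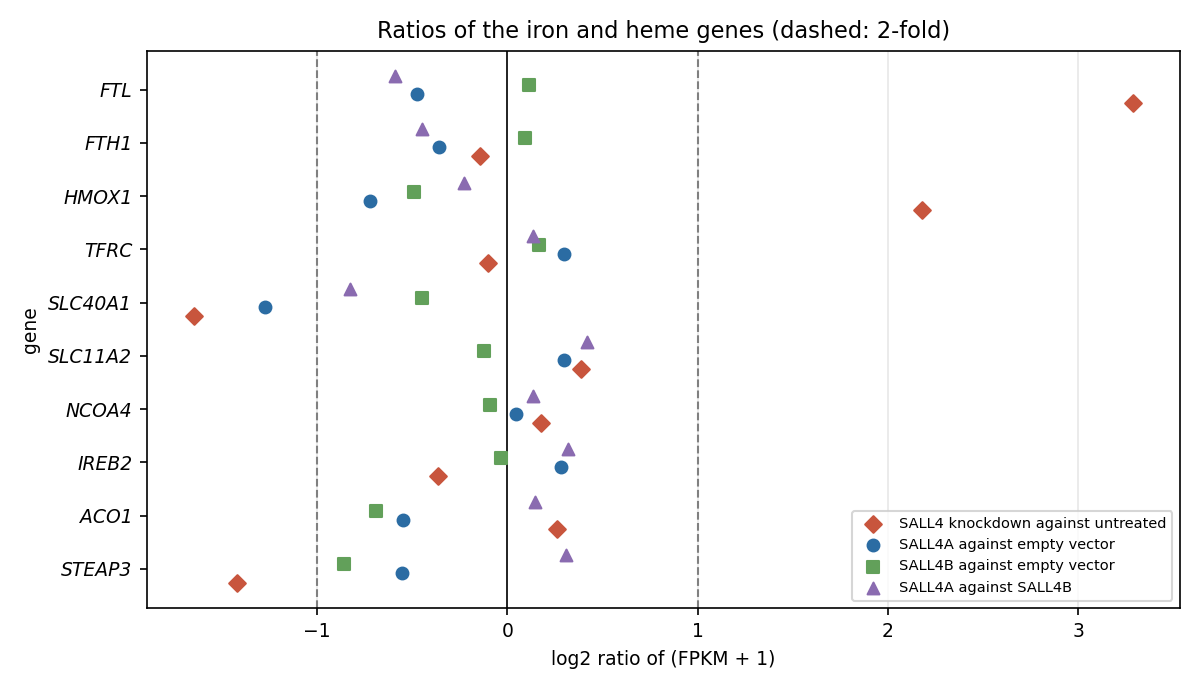
log2 ratio of (FPKM + 1) for the 10 genes in 4 comparisons, 1 library on each side, with dashed lines at 2-fold. FTL (3.29) and HMOX1 (2.18) stand to the right in the knockdown comparison, and SLC40A1 is the sole gene left of the lower line in the SALL4A comparison, at -1.28.

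Overexpression in SNU-387 left most of the set within 2-fold, as it did most genes. With SALL4A, 0 of 10 genes were higher and 1 was lower, against 2.27% and 3.24% of 12441 genes tested. With SALL4B, 0 of 10 were higher and 0 lower, against 3.13% and 4.86% of 12459 genes. Counts this small among 10 genes are not read as a result about the set. Both comparisons share the empty vector library, so a single high or low value there enters each of them. The median of the 10 ratios was -0.42 with SALL4A, where that of all genes was 0.01, and -0.10 with SALL4B, where that of all genes was 0.03. FTL was at -0.47 and 0.12 with SALL4A and SALL4B, FTH1 at -0.36 and 0.09, and TFRC at 0.30 and 0.16. The SALL4B values of FTL and FTH1 turned to -0.01 and -0.03 when ratios were centred on genes of similar length, and that of FTH1 was -0.00 under a common total.

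The isoforms were also set against each other, with SALL4A over SALL4B. None of the 10 genes reached 2-fold in either direction, against 3.82% of 12424 genes higher and 3.39% lower with SALL4A. SLC40A1 had the ratio farthest from 0, at -0.83, followed by FTL at -0.59 and FTH1 at -0.45. On the other side SLC11A2 was at 0.42, IREB2 at 0.32 and STEAP3 at 0.31. The median was 0.13, where that of all genes was -0.00. From 500 bases on, ratios over all genes rose with transcript length. Their median was -0.37 from 500 to 1000 bases and 0.11 from 4000 bases. FTL (878 bases) and FTH1 (1229 bases) are short, and centred on genes of similar length they were at -0.33 and -0.19. SLC11A2, IREB2 and STEAP3 were then at 0.36, 0.19 and 0.24, and SLC40A1 at -0.86. SALL4 itself was higher in the SALL4A library, so isoform and amount of SALL4 cannot be told apart.

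Beyond the 10 genes, 80 genes of iron and heme handling were listed, of which 74 had a row. In the knockdown comparison 59 of them were at 1 FPKM or more, 1 was higher and 4 were lower, with a median of -0.18, beside 9.73% of all genes higher and 8.13% lower. The higher one was FBXL5, the iron-sensing ubiquitin ligase subunit that degrades IREB2, at 13.9 FPKM in untreated and 34.1 in knockdown cells (ratio 1.24). In SNU-387 it was at 36.0 to 37.6 FPKM. The lower ones were the zinc and iron importer SLC39A8, the heme synthesis enzymes ALAD and UROS, and the mitochondrial iron-sulfur cluster factor BOLA3. SLC39A8 was at 6.87 and 1.74 FPKM (ratio -1.52) and BOLA3 at 146 and 43.0 FPKM (ratio -1.74).

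In heme synthesis most ratios after knockdown were below 0. Of 9 tested genes 2 were lower, 0 higher, and 7 had ratios below 0, with a median of -0.46, against 8.13% of all genes lower, 9.73% higher and a median of -0.01. Over all genes of 1000 to 2000 bases the median was -0.16 and 11.1% were lower. Whether transcript length enters the ratios of this list was not tested. UROS, which closes the porphyrin ring, was at 33.03 FPKM in untreated and 15.5 in knockdown cells (ratio -1.04). ALAD, which joins 2 aminolevulinate molecules, was at 8.21 and 3.28 FPKM (ratio -1.10). None of the 9 reached 2-fold with SALL4A or SALL4B. Over all genes 2.27% were higher and 3.24% lower with SALL4A, and 3.13% and 4.86% with SALL4B. The 2 most abundant genes of this list differed less: TMEM14C, a heme precursor carrier, was at 28.6 and 20.5 FPKM (ratio -0.46) and CLPX, a chaperone that activates the first enzyme, at 49.4 and 48.6 FPKM (ratio -0.02).

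Beyond HMOX1, none of the 10 tested genes for heme transport, scavenging and breakdown was higher or lower after knockdown. Over all genes 9.73% were higher and 8.13% lower, so a count of 0 among 10 is not read as a result about this list. The biliverdin reductases, which act on the product of HMOX1, were at 30.6 and 20.3 FPKM for BLVRA (ratio -0.57) and at 42.2 and 49.999 FPKM for BLVRB (ratio 0.24). BLVRB was lower with SALL4A, at 27.4 FPKM against 65.4 FPKM with empty vector (ratio -1.23). The heme-binding protein PGRMC1 was at 45.7 and 33.9 FPKM in SNU-398 (ratio -0.42). In iron-sulfur cluster assembly 0 of 22 tested genes were higher and 1, BOLA3, was lower, beside 9.73% and 8.13% of all genes. The median was -0.17. The chaperone HSPA9 was at 179 and 320 FPKM (ratio 0.83).

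In the SALL4A comparison 61 of the 74 genes were tested and 2 were higher (ABCG2, BMP6) and 3 lower (CP, BLVRB, TF), with a median of -0.04, beside 2.27% and 3.24% of all genes. With SALL4B 61 were tested and 2 were higher (ABCG2, STEAP4) and 4 lower (CP, STEAP1, STEAP2, TF), with a median of 0.04, beside 3.13% and 4.86% of all genes. Between the isoforms 1 of 61 was higher (BMP6) and 1 lower (STEAP4), beside 3.82% and 3.39% of all genes. BMP6, STEAP4 and TF were below 5 FPKM and are named after their values were seen. Ceruloplasmin (CP), the plasma ferroxidase that works with SLC40A1, was at 118 FPKM with empty vector, 22.7 with SALL4A and 17.2 with SALL4B, ratios of -2.32 and -2.71. ABCG2, a transporter that exports heme and porphyrins, was at 1.96, 5.80 and 5.29 FPKM, ratios of 1.20 and 1.09.

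Other uptake genes gave smaller values. STEAP1 was at 18.6, 11.8 and 8.39 FPKM with empty vector, SALL4A and SALL4B, and STEAP2, a metalloreductase, at 8.78, 5.71 and 3.58 FPKM. Their SALL4B ratios were -1.06 and -1.10. The ferric reductase CYBRD1 was at 82.1, 45.6 and 43.5 FPKM, with ratios of -0.84 and -0.90. The iron and zinc importer SLC39A14 was at 51.2, 72.6 and 54.7 FPKM. STEAP1, STEAP2, STEAP3 and CYBRD1 each had their highest SNU-387 level with empty vector. Among iron chaperones, PCBP2, which delivers iron to ferritin, was at 163 and 107 FPKM in untreated and knockdown cells (ratio -0.61), and the glutaredoxin GLRX3 at 76.8 and 66.9 FPKM (ratio -0.20). The hemojuvelin receptor NEO1 was at 14.5 and 12.8 FPKM there (ratio -0.16).

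**Figure D5:**
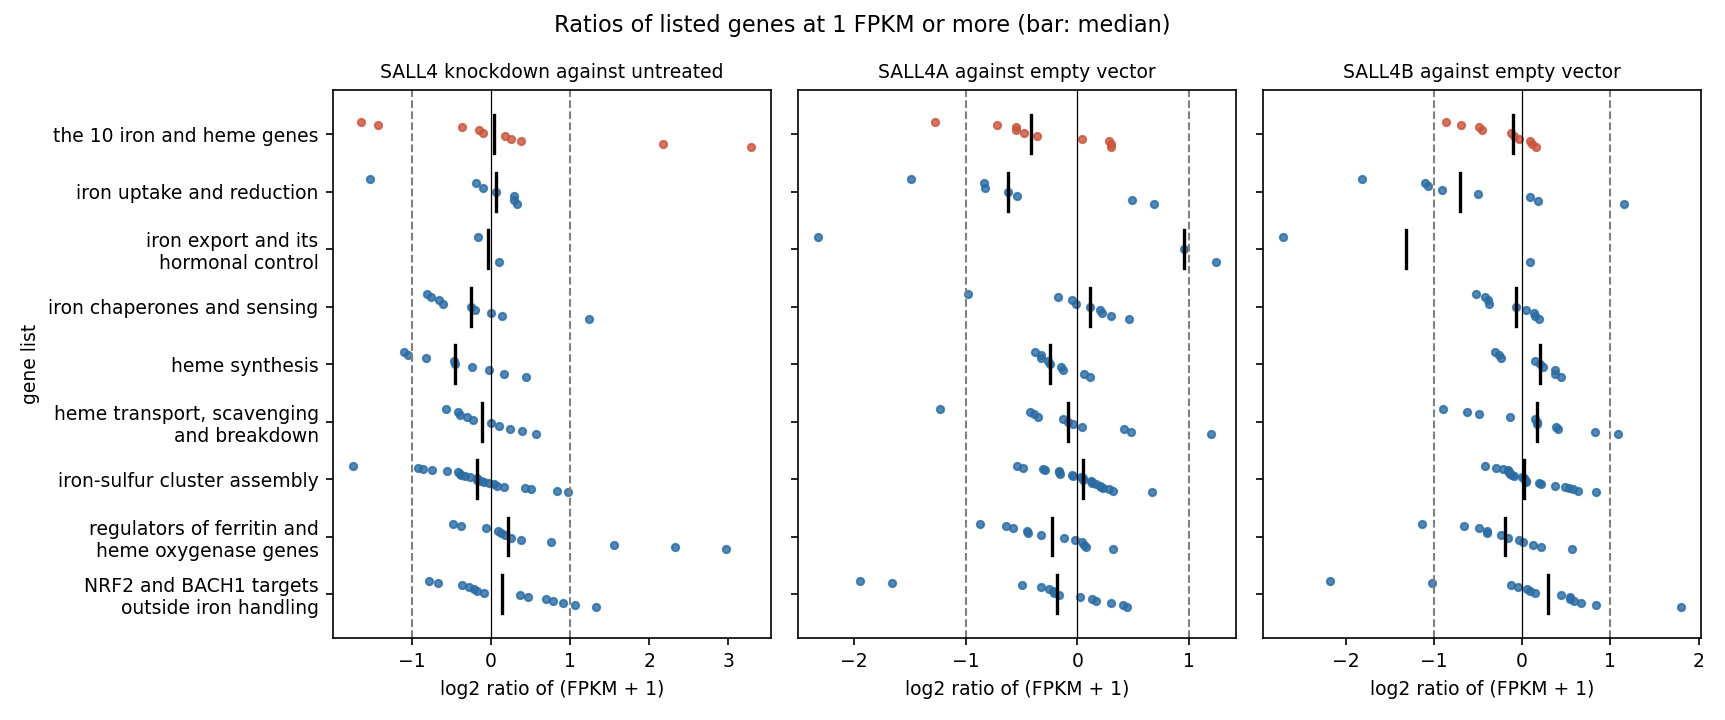
log2 ratios of (FPKM + 1) for every listed gene at 1 FPKM or more, by list (rows), in the knockdown, SALL4A and SALL4B comparisons (panels), with a black bar at each list's median and dashed lines at 2-fold. In the knockdown panel the heme synthesis list has its median at -0.46 and the regulators of ferritin and heme oxygenase genes at 0.21.

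Factors that bind the enhancers of HMOX1 and the ferritin genes were described next. Of 12 listed factors, all tested, 3 were higher after knockdown and 0 lower, with a median of 0.21, where 9.73% of all genes were higher, 8.13% lower and the median was -0.01. JUN was at 1.38 FPKM in untreated and 17.8 in knockdown cells (ratio 2.98), FOS at 7.58 and 42.0 FPKM (ratio 2.32) and MAFF, a small MAF protein that pairs with NRF2 or BACH1, at 3.33 and 11.7 FPKM (ratio 1.56). JUN and FOS form AP-1. In SNU-387 JUN was at 47.8 to 51.9 FPKM, FOS at 3.89 to 7.99 FPKM and MAFF at 5.47 to 7.49 FPKM. Their part in the HMOX1 levels was not tested. BACH1 was at 26.9 and 35.4 FPKM (ratio 0.38), and in SNU-387 it was lower with SALL4B, at 11.46 FPKM against 26.3 FPKM with empty vector (ratio -1.13). The most abundant of the factors were ATF4, at 245 and 278 FPKM (ratio 0.18), and HIF1A, at 57.4 and 61.1 FPKM (ratio 0.09), in untreated and knockdown cells.

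NRF2 and BACH1 targets outside iron handling gave 2 of 14 higher and 0 lower after knockdown, with a median of 0.14, beside 9.73% and 8.13% of all genes. NQO1, a quinone reductase, was at 3.03 and 9.11 FPKM (ratio 1.33) and SQSTM1, an autophagy receptor, at 41.3 and 87.4 FPKM (ratio 1.06). NQO1 was at 255 FPKM in SNU-387 with empty vector. It is 1 of the 16 genes abundant in SNU-387 and under 5 FPKM in untreated SNU-398. Whether SNU-387 RNA or reads enter its gain was not tested. Thioredoxin reductase TXNRD1 was at 71.4 and 92.7 FPKM (ratio 0.37), and GCLC, of glutathione synthesis, at 15.5 and 11.8 FPKM (ratio -0.36). In SNU-387 the aldo-keto reductase AKR1B10 was at 102 FPKM with empty vector, 25.8 with SALL4A and 49.8 with SALL4B, ratios of -1.94 and -1.02. OSGIN1, an oxidative stress response gene, was at 7.45, 8.26 and 28.4 FPKM, with a SALL4B ratio of 1.80. The transporter ABCC2, below 5 FPKM and named after its values were seen, was lower with each isoform. Between the isoforms NQO1 (ratio -1.04), GCLC (ratio -1.003) and OSGIN1 (ratio -1.67) were lower with SALL4A.

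Genes with a pattern like that of FTL were sought over the 5 libraries among 11766 genes at 5 FPKM or more in at least 1 of them. Likeness was the root mean square difference of log2(FPKM + 1) after each gene was centred on its own mean, where 0 is an identical pattern. The nearest was TMSB4X, which encodes an actin-binding peptide, at 0.25. It was at 1337, 964 and 1342 FPKM in SNU-387 and at 8.72 and 54.1 FPKM in untreated and knockdown cells. The next were HIST1H1D (0.50), NQO1 (0.65), S100A6 (0.67) and TES (0.68). HIST1H1D and S100A6 are also among the 10 genes near absent from untreated SNU-398.

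The genes nearest to HMOX1 were low in SNU-387. They were the combined row of LINC00461 and MIR9-2 (0.15), MSS51 (0.21), the pseudogene SLC6A10P (0.22), the pseudogene EGFEM1P (0.23) and DNAH7 (0.25). MSS51 was at 0.277 to 0.478 FPKM in SNU-387, 3.30 FPKM in untreated and 15.7 in knockdown cells. All 5 were under 0.5 FPKM in every SNU-387 library, where HMOX1 was at 10.1 to 17.3 FPKM, so the likeness lies in the differences and not in the level.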

How the data were processed

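RNA-seq of 5 libraries was analysed from FPKM per gene, which the authors made and deposited. Per the submitters' processing notes, the tools were TopHat2, SAMtools, Cufflinks and Cuffdiff, and the builds GRCh38 and hg38. Versions, gene annotation, strand use and joint normalisation were not given in the sources used here. Per the labels' protocols, RNeasy columns were used for total RNA and a ScriptSeq Complete Gold kit for the libraries.

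Each table had 26032 rows. Of these, 17 had a dash for a name and were dropped, and values were added up for the 450 symbols with several rows. A ratio was the difference in log2(FPKM + 1) between 2 libraries, taken where a gene reached 1 FPKM in one or both and counted from 2-fold. No test was run, because each group held 1 library. Depth was estimated from the steps of low FPKM values over transcript lengths of GENCODE 29, with a fragment length shift of 140 bases. In each library 71.1% to 77.9% of the low values used came within 0.15 of a whole fragment, so the fragment numbers are approximate and their errors cover counting only. The FPKM files themselves give no counts.

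The 10 genes and all lists were chosen with earlier results of these data known, and 1 gene was later left out of the lists and their counts and is not reported here. Named genes were the 10, the 2 most abundant of each list, those at least 2-fold different with 5 FPKM or more in the higher library, the 5 genes nearest in pattern to FTL and to HMOX1, and the highest ferritin pseudogene. Alternatives were other pseudocounts, filters, scalings, row handling and a length correction. Functions were tested on simulated data. Python 3.11.15, numpy 2.4.6, pandas 2.3.3 and matplotlib 3.10.9 were used.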

Additional observations from a re-analysis of the deposited data

Results flagged for a closer look

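SLC40A1 had a log2 ratio of -1.28 for SALL4A over empty vector in SNU-387, and in SNU-398 it was also lower after SALL4 knockdown, at -1.65. Read as more over less SALL4, the 2 lines point in opposite directions, since SLC40A1 was 16.8 FPKM with empty vector and 6.34 with SALL4A, but 7.07 FPKM in untreated and 1.57 in knockdown cells. The difference between the lines was not tested, as each condition held 1 library.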

How the results depend on the processing

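No paired analysis was possible because each group held 1 library and the labels carry no replicate numbers. No alternative turned a called ratio of the 10 genes to the other direction. After knockdown the FTL ratio ranged from 2.29 to 3.72 and that of HMOX1 from 1.52 to 2.32 over all alternatives, including the subtraction of SNU-387 levels added after the data were seen. A pseudocount of 5 FPKM took SLC40A1 to -0.88 and STEAP3 to -0.85 after knockdown and SLC40A1 to -0.94 with SALL4A, leaving 0 of the 10 lower in either comparison; a common total took IREB2 to -1.01 after knockdown. The 74 wider genes gave small counts that moved more. After knockdown they had 2 higher with a pseudocount of 0.1 FPKM, a common total without small RNAs or a common upper quartile, 0 higher and 18 lower with a common total, and 1 lower with a pseudocount of 5 FPKM. With SALL4A 1 was higher with a filter at 5 FPKM and 0 with a pseudocount of 5 FPKM. With SALL4B 1 was higher with a filter at 5 FPKM or a common total without small RNAs, and with a pseudocount of 5 FPKM 0 were higher and 1 lower. Between the isoforms 3 were higher with a pseudocount of 0.1 FPKM, 4 with a common total without small RNAs, 2 with the length correction and 0 with a pseudocount or filter at 5 FPKM; 0 were lower with a pseudocount or filter at 5 FPKM and with each of the 3 scalings. Over all genes, knockdown counts went from 1335 higher and 1115 lower to 1997 and 1560 with a pseudocount of 0.1 FPKM and to 508 and 382 with 5 FPKM. The share of higher genes among those called went from 41.2% to 50.5% with SALL4A under a common total without small RNAs, where the median shifted to 0.10, and from 53.0% to 64.2%, 72.9% and 62.3% between the isoforms under a common total, that total without small RNAs and the upper quartile. Depth limits the low values: the SLC40A1 value after knockdown rests on about 40 fragments and the FTL value in untreated cells on about 37. The cause of these changes was not tested.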
